A study of Drosophila melanogaster with 6 samples.

Results

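The genes described here encode the recognition proteins and signalling components of the Toll and Imd pathways of Drosophila melanogaster, the fly's inducible defences against fungi and bacteria, without the antimicrobial peptides that the pathways switch on. They were chosen by name: 13 peptidoglycan recognition proteins (PGRPs), 3 proteins of the GNBP family, 6 components of the extracellular Toll cascade, 7 of the Toll receptor and its intracellular chain, and 8 of the Imd pathway. All 37 names were found among the 14862 genes of the authors' deposited table.

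Toll and Imd both end in transcription factors of the NF-kappaB family. In the Toll pathway, bacterial and fungal cell wall material is sensed outside the cell, a chain of serine proteases is activated, and the last protease cuts the ligand Spaetzle (spz), which binds the receptor Toll (Tl). The receptor acts through Myd88, tube (tub) and pelle (pll) on Cactus (cact), the inhibitor that holds dorsal (dl) and Dif in the cytoplasm. In the Imd pathway, PGRP-LC at the surface and PGRP-LE inside the cell bind peptidoglycan, and the signal passes through imd, the caspase Dredd, the kinase Tak1 with Tab2 and the kinase complex of key and ird5 to Relish (Rel). The same Toll chain from spz to dl also sets the dorsoventral axis of the egg, and its RNAs are supplied by the mother.

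RNA came from 3 GFP control and 3 InR-DN samples, each made of 200 pooled embryos labelled as 16 to 20 h old, while the design text gives 16 h. Control embryos derive from oocytes that made green fluorescent protein (GFP), and the others from oocytes that made a dominant-negative form of the insulin receptor (InR-DN), so in both groups the transgene acted in the germ line of the mother. All flies had the same food with yeast paste. The driver, the strain and the age of the mothers were not stated in the labels. Nor do the labels say that replicates came from separate matings, so the p-values may measure technical spread.

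One comparison and no value per sample make up the authors' deposited table. Which group forms the numerator of its fold change is not given in the sources. Values are therefore given for a positive and a negative side, and none is assigned to InR-DN or to GFP. Each log2 fold change is followed by ± its implied SE, the error at which the fold change would give the deposited test statistic. InR itself had 0.25 ± 0.26 with an adjusted p of 1 by the edgeR likelihood ratio test of the authors' deposited table, which does not identify the sides either.

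Genes with 1 or 2 reads fixed the effective size of every library in the fit. There were 12, with 25.7, 37.3 and 40.5 M reads (1 M is 1e6 reads) in the positive-side libraries and 23.4, 29.6 and 31.1 M in those of the negative side, and 6 libraries of 15.8 to 33.0 M that took no part in the comparison. An average CPM (count per 1e6 reads) covers all 12, so it is not the level in the embryos compared. Markers of epidermis and cuticle were nearly absent. Of 6 found, Osi7 and Cpr49Aa had no read in the compared libraries, which allows up to 0.016 CPM. Osi19, at 7.98 CPM in the authors' deposited table, was the 1 marker that averaged over 1 CPM. Of 15 ovary, eggshell and early egg markers, the lowest averaged 73.0 CPM in the authors' deposited table, and 0 were called or had an unadjusted p under 0.05 by edgeR. Some cuticle genes are known to be active late in embryogenesis, and the 6 found do not bear out the labelled age. Markers of neurons and muscle ranged widely in the authors' deposited table. There elav averaged 131 CPM and Act57B 27.2 CPM, but nSyb averaged 0.424 CPM and Mhc 3.19 CPM. The labelled age was not tested, and it is used here without support from the cuticle markers.

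One member differed between the sides. In the authors' deposited table, modSP passed on the positive side at a Benjamini-Hochberg adjusted p under 0.05 by edgeR, 0 members passed on the negative side, and the other 36 did not pass. That is 2.70% of the members, against 4.49% of all genes called on either side, 2.30% on the positive and 2.19% on the negative, so the share called is no result about the pathways. Among genes that averaged 1 CPM or more, modSP was 1 of 22 members, against 4.10% of all genes on either side, 2.52% on the positive and 1.58% on the negative. At an unadjusted p under 0.05 there were 3 members, modSP and Dredd on the positive side and, on the other, PGRP-SA, against 10.0% of all genes. The median log2 fold change of the 37 members in the authors' deposited table was -0.05, and -0.01 with the 3 members at or under 3 reads on each side set to 0, against 0.00 for all genes.

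**Figure D1:**
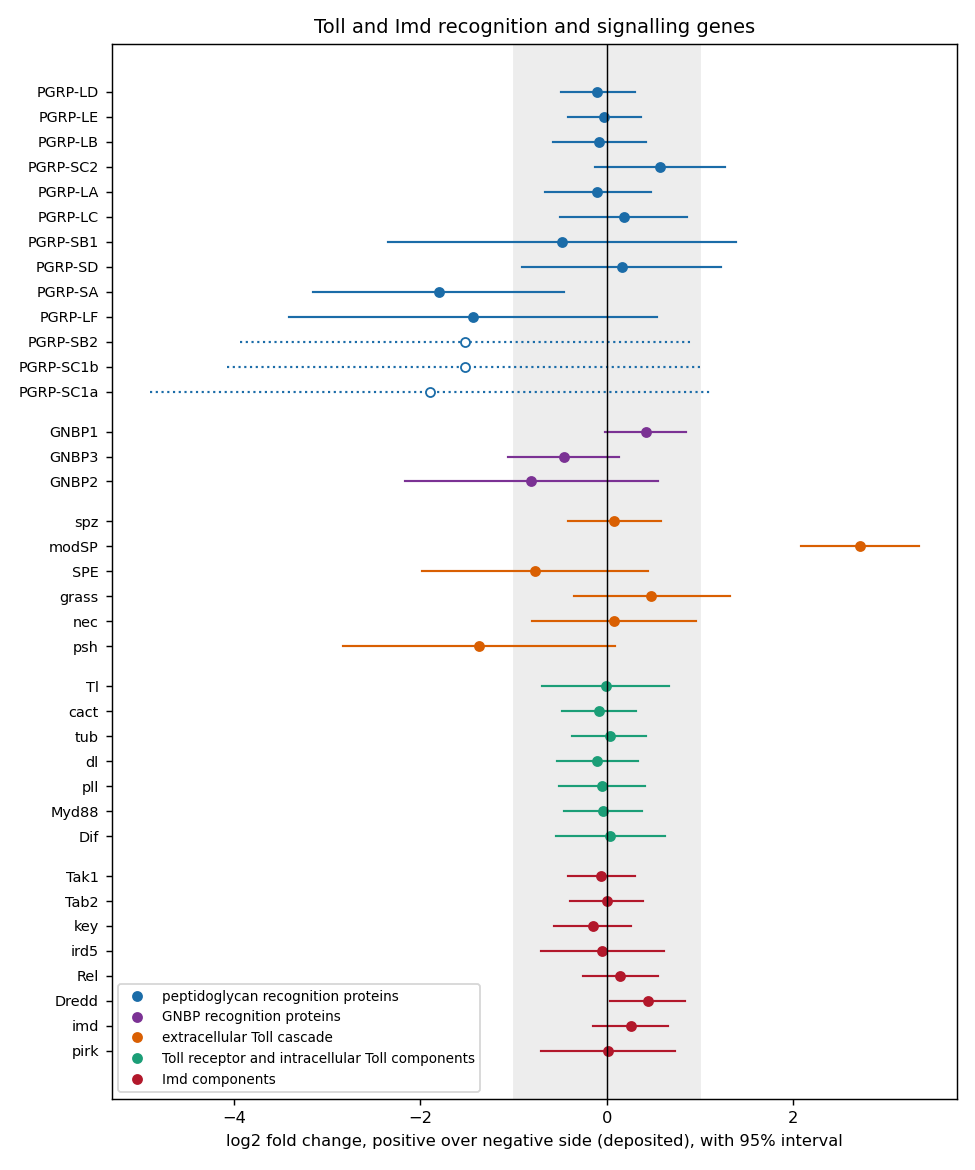
Log2 fold change of each member, positive over negative side, as deposited by the authors (points), with an approximate 95% interval (lines), grouped and coloured by role and ordered within a role by average CPM; the grey band spans 2-fold either way. The modSP interval lies outside the band. The 15 genes of the Toll receptor and the intracellular Toll and Imd chains lie inside it with their whole intervals. Open symbols with dotted lines mark the 3 PGRP genes at or under 3 reads on each side, whose fold depends on the prior count.

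modSP, a modular serine protease that links recognition to the protease cascade upstream of Toll, had a log2 fold change of 2.72 ± 0.32 (approximate 95% interval 2.08 to 3.35) and an adjusted p of 1.09e-14 by edgeR in the authors' deposited table. This is 6.58-fold, with an interval of 4.23-fold to 10.2-fold, and it ranks 77 by p among the 14862 genes. The authors' deposited table lists it at an average of 6.03 CPM over the 12 libraries. By approximate limits, the level on the positive side lies between 1.11 and 20.9 CPM and that on the negative side between 0.169 and 3.18 CPM. For the lower limits, counting noise is taken as the whole error, which needs about 38.3 reads per positive-side library and 4.74 per negative-side library, and the upper limits give the compared libraries every read of the fit. No other annotated gene shares exon sequence with modSP in Release 6. Its neighbours did not pass: CG14907 had -0.08 ± 0.27 and Ubx had -0.28 ± 0.87 in the authors' deposited table.

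Some markers of several tissues lay on the same side as modSP. By edgeR in the authors' deposited table, 7 of 8 midgut markers, 2 of 8 larval fat body markers, 1 of 7 muscle markers and 1 of 10 blood cell markers passed on the positive side, with median log2 fold changes of 5.85, 1.58, 0.50 and 0.25. The eighth midgut marker, Npc1b, passed on the negative side with -1.20 ± 0.32 (adjusted p 0.00667 by edgeR) in the authors' deposited table. The shares of all genes that passed were 2.30% (positive) and 2.19% (negative). These lists were chosen with earlier results of these data known, so their counts beside those shares are no independent support. The blood cell marker that passed was Pxn, with 1.64 ± 0.53 (adjusted p 0.0446 by edgeR) in the authors' deposited table. There Cg25C averaged 76.9 CPM with 0.53 ± 0.27 (unadjusted p 0.0498 by edgeR), and Sr-CI, a scavenger receptor of blood cells, had 0.19 ± 0.71. NimC1, a phagocytosis receptor of blood cells, lay on the negative side (unadjusted p 0.0389 by edgeR). It averaged 0.0777 CPM, and a gene with 1 read in the whole fit is listed at 0.0719 CPM, so no fold is given. Averages from the authors' deposited table summed to 83.5 CPM for the midgut list, 396 CPM for fat body, 639 CPM for muscle and 327 CPM for blood cells. Outside the midgut, most of each sum came from markers that did not pass. For fat body, Rfabg averaged 231 CPM with 0.14 ± 0.28 and Adh 163 CPM with -0.14 ± 0.22. Tm1 of muscle averaged 528 CPM with 0.13 ± 0.30, and srp of blood cells 160 CPM with 0.24 ± 0.19. The markers that passed averaged 0.826 CPM (Lsp2), 0.258 CPM (Lsp1beta), 55.8 CPM (Msp300) and 12.1 CPM (Pxn). The part of these tissues in the modSP result was not tested. In RNA labelled as that of whole embryos, fewer cells of a type and less RNA per cell cannot be told apart.

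None of the other 5 extracellular Toll components passed. grass, the protease known to act after modSP, had a log2 fold change of 0.48 ± 0.43 in the authors' deposited table. SPE, the protease that cuts Spaetzle, had -0.77 ± 0.62, and the serpin necrotic (nec), an inhibitor of the cascade, had 0.08 ± 0.45 in the authors' deposited table. For these 3 scarce genes a change of 1.30 to 1.89 on the log2 scale would have been needed for a call. The ligand gene spz, with 17588 reads in the fit, had 0.08 ± 0.25 (interval -0.42 to 0.58) in the authors' deposited table. The interval of modSP lies above each of theirs, and the difference itself was not tested.

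For psh, a protease that senses microbial proteases, the whole reads in each compared library could be recovered. On the positive side there were 2, 2 and 1 reads in the largest, middle and smallest library, which is 0.0494, 0.0537 and 0.0389 CPM. On the negative side there were 3, 3 and 5 reads, which is 0.0964, 0.101 and 0.214 CPM. All 3 libraries of the negative side lay above all 3 of the positive side. The means were 0.0473 ± 0.00762 CPM and 0.137 ± 0.0662 CPM (SD, n = 3 libraries each). The ratio, negative over positive, was 2.71 with an exact counting interval of 0.867 to 9.93, and the authors' deposited table gives an adjusted p of 0.583 by edgeR.

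Recovery worked for 8 members in all, each with at most 72.2 reads over the 12 libraries of the fit. For each of them exactly 1 set of whole reads met the deposited fold change, test statistic and average together. Intervals and floors from these reads cover counting error only, since reads without molecular identifiers are not independent molecules. The sides did not overlap for PGRP-LF, PGRP-SA, PGRP-SB2 and psh, which were not among the 4.49% of all genes called. The share of all genes whose sides do not overlap was not computed, and PGRP-SB2 had 3 reads or fewer on each side, so nothing is read from that number of genes.

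Among the PGRPs, PGRP-SA had the smallest unadjusted p. It is the circulating receptor that, with GNBP1, senses Gram-positive bacteria for the Toll pathway. It had 2, 3 and 0 reads in the positive-side libraries, from the largest to the smallest, and 5, 5 and 5 in those of the negative side. In CPM that is 0.0494, 0.0805 and 0 against 0.161, 0.169 and 0.214, with no overlap. The means were 0.0433 ± 0.0406 CPM and 0.181 ± 0.0284 CPM (SD, n = 3 libraries each). The ratio, negative over positive, was 3.69 with an exact counting interval of 1.27 to 13. Its unadjusted p of 0.0086 became 0.147 after Benjamini-Hochberg adjustment of the edgeR test in the authors' deposited table, so PGRP-SA did not pass.

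PGRP-SD, another secreted recognition protein, had the most reads of the 8 in the compared libraries, and its sides overlapped. Its reads were 5, 10 and 8 on the positive side, from the largest to the smallest library, against 5, 8 and 4 on the negative side. The levels were 0.124 to 0.311 CPM and 0.161 to 0.270 CPM, with a ratio of 0.909 (exact counting interval 0.456 to 1.78). PGRP-SB1, a secreted amidase that degrades peptidoglycan, had 1, 4 and 4 reads against 6, 2 and 3, and its levels of 0.0247 to 0.155 CPM and 0.0676 to 0.193 CPM overlapped too. PGRP-LF, a surface protein known to hold down Imd signalling, had 1, 1 and 0 reads on the positive side against 2, 2 and 1 on the negative side, a ratio of 3.07 with an exact counting interval of 0.503 to 32.3. By edgeR the adjusted p in the authors' deposited table was 1 for PGRP-SD and PGRP-SB1 and 0.867 for PGRP-LF.

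The remaining scarce PGRPs were at the limit of detection. PGRP-SC1a had 1 read in the 6 compared libraries, in the largest of the negative side. Its close copy PGRP-SC1b had 1, 0 and 0 reads on the positive side against 2, 0 and 1 on the negative side. PGRP-SB2 had 1, 0 and 0 reads against 1, 1 and 1. All 3 encode secreted amidases or amidase-like proteins, and reads of the near-identical SC1 copies may be split between them. No fold is given for these genes, since 3 reads or fewer were found on each side.

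**Figure D2:**
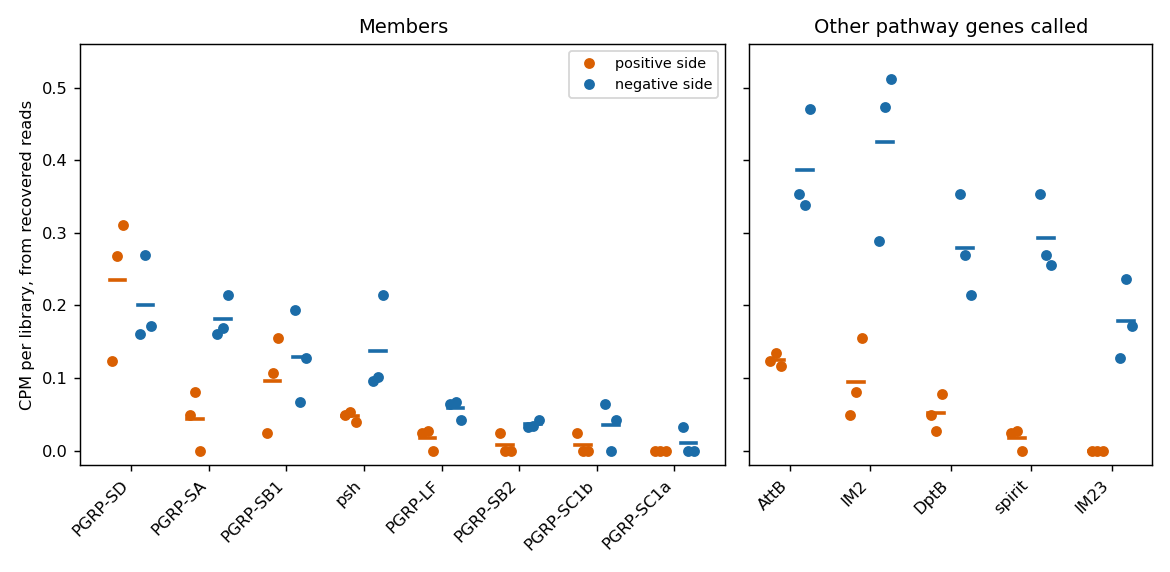
Level in each compared library, in CPM, computed from recovered whole reads, for 8 members (left) and for 5 called genes of the other pathway lists (right); points are libraries, 3 per side, and bars are means. PGRP-SA and psh are higher in all 3 negative-side libraries without passing the test, PGRP-SD overlaps, and IM23 has no read on the positive side.

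None of the better covered PGRPs passed either. PGRP-LC, the main surface receptor of the Imd pathway, had a log2 fold change of 0.18 ± 0.35 (interval -0.50 to 0.86) and PGRP-LE, the receptor inside cells, had -0.03 ± 0.20 (interval -0.42 to 0.37) in the authors' deposited table. PGRP-LA, a positive regulator of the pathway, had -0.10 ± 0.29, and PGRP-LB, an amidase that dampens the response, had -0.08 ± 0.25 in the authors' deposited table. PGRP-LD had -0.10 ± 0.20 at an average of 48.0 CPM, and Pmi, whose exons overlap its exons in Release 6, had -0.10 ± 0.20 at 47.6 CPM in the authors' deposited table, so the reads of these genes may be shared. Exons of Cralbp and of an antisense RNA overlap PGRP-LD as well. The amidase gene PGRP-SC2, which lies beside PGRP-SC1b, had 0.57 ± 0.36 (interval -0.13 to 1.27) in the authors' deposited table, the one of these 6 whose interval reached past 2-fold. PGRP-LA, PGRP-LC and PGRP-LF lie next to each other in Release 6.

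The GNBP family was of mixed sign, with 0 of 3 called. GNBP1, the partner of PGRP-SA, had a log2 fold change of 0.42 ± 0.22 (interval -0.02 to 0.85) in the authors' deposited table. GNBP3, the sensor of fungal glucans, had -0.46 ± 0.30 (interval -1.06 to 0.13), and GNBP2 had -0.81 ± 0.69 (interval -2.17 to 0.55) in the authors' deposited table. The smallest change that could have been called was 0.68 for GNBP1, 0.93 for GNBP3 and 2.13 for GNBP2 on the log2 scale. GNBP1 and GNBP2 are neighbours in Release 6.

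For the 7 genes of the Toll receptor and its intracellular chain, every log2 fold change in the authors' deposited table lay between -0.10 and 0.04, and each interval stayed within 2-fold either way. The receptor gene Tl had -0.01 ± 0.35 and the inhibitor gene cact -0.08 ± 0.20 in the authors' deposited table. Myd88 and tub, which encode adaptors, had -0.04 ± 0.22 and 0.03 ± 0.20, and the kinase gene pll had -0.05 ± 0.23 in the authors' deposited table. Of the NF-kappaB factors, dl had -0.10 ± 0.22 and Dif, the factor of the larval and adult immune response, had 0.04 ± 0.30 in the authors' deposited table. Per kilobase of merged exon, averages over the 12 libraries were highest for cact with 84.4 CPM, Tl with 64.8 CPM and the Imd gene key with 50.3 CPM. On the same scale dl had 7.48 CPM and Dif 0.309 CPM. For Tl and cact the lower limits on the positive side were 0.363 and 1.06 CPM, so the share of their averages of 337 and 280 CPM that belongs to the compared libraries is not fixed.

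The 8 genes of the Imd chain in the authors' deposited table had log2 fold changes between -0.15 and 0.44, and each interval stayed within 2-fold either way. Dredd, the caspase that cleaves imd and Relish, was at the upper end with 0.44 ± 0.21 (interval 0.04 to 0.84), an unadjusted p of 0.0323 and an adjusted p of 0.371 by edgeR in the authors' deposited table. Of the 37 members, 12 have exons that overlap those of another gene in Release 6. Exons of Mybbp1A overlap those of Dredd, and the labels do not say whether strand was used in counting. imd had 0.26 ± 0.21 and Rel had 0.14 ± 0.21 in the authors' deposited table. Of the kinase genes, Tak1 had -0.06 ± 0.18 and ird5 -0.05 ± 0.34, and their partners Tab2 and key had -0.00 ± 0.20 and -0.15 ± 0.21 in the authors' deposited table. pirk, an inhibitor that Imd signalling itself induces, had 0.01 ± 0.37 (interval -0.71 to 0.73) in the authors' deposited table. Over the 15 genes of both chains, Tl included, the smallest change that could have been called ran from 0.56 for Tak1 to 1.13 for pirk on the log2 scale.

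**Figure D3:**
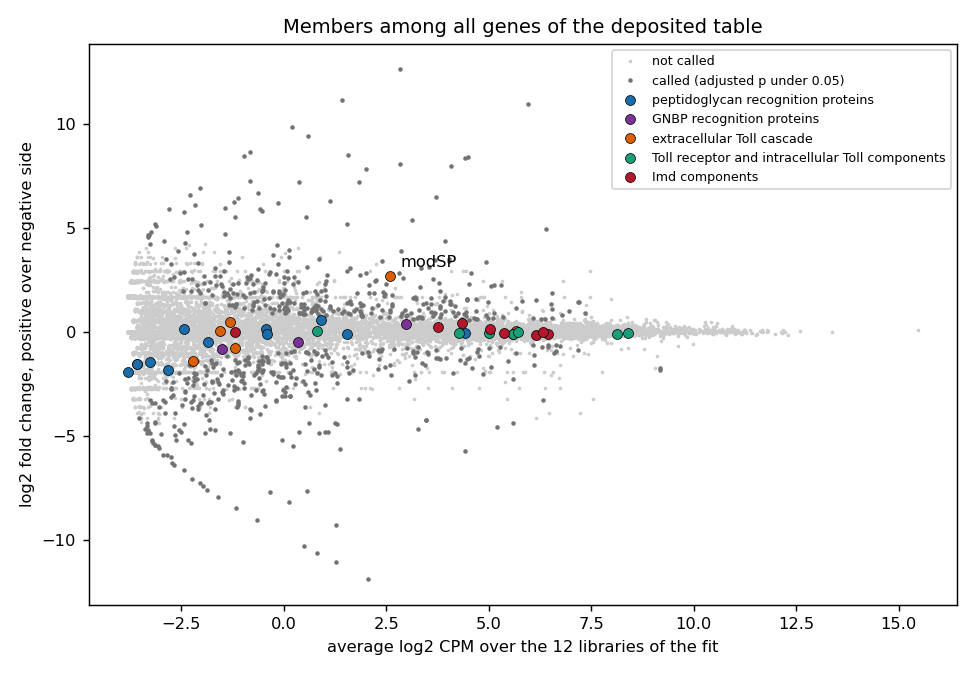
Log2 fold change, positive over negative side, against average log2 CPM over the 12 libraries of the fit, for all 14862 genes of the authors' deposited table (grey, darker where called) and for the 37 members coloured by role. Of the 15 genes of the Toll receptor and the Toll and Imd chains, 12 sit at 16 CPM or more and Dif and pirk far lower. Of the 22 recognition and cascade genes 14 sit below 1 CPM, and modSP is the 1 member among the called genes.

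In 23 of 37 members (62.2%) the interval stayed within 2-fold either way, against 47.6% of all genes. All genes include 1782 with no read in the compared libraries and so no interval, while all 37 members had reads, so these shares are not like for like. Among genes that averaged at least 16 CPM the shares were 15 of 15 members and 91.6% of all genes, with a median size of the log2 fold change of 0.06 against 0.09 in the authors' deposited table. The reads behind the members divide by role. Of the 15 genes of the Toll receptor and the Toll and Imd chains, 12 averaged at least 16 CPM. Of the 22 recognition and cascade genes, 14 averaged below 1 CPM and 3, PGRP-LD, PGRP-LE and spz, at least 16 CPM. An average this low also holds the prior count, and a gene with 1 read in the whole fit is listed at 0.0719 CPM.

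Further genes of the pathways and of other immune responses were read from lists of 111 genes, beside 2.30% of all genes called on the positive side, 2.19% on the negative and 10.0% at an unadjusted p under 0.05. Of 33 other intracellular regulators, 0 passed the edgeR test on either side in the authors' deposited table, and 2, the adaptor gene Fadd with -0.66 ± 0.24 (adjusted p 0.1) and nub with -0.77 ± 0.38, had an unadjusted p under 0.05. The 7 other Toll receptors and 5 other Spaetzle genes also gave 0 calls on either side by edgeR, with 0 and 1 at an unadjusted p under 0.05, the 1 being spz5 with 0.83 ± 0.31 in the authors' deposited table. Of 15 further upstream regulators, serpins among them, 1 passed on the negative side, spirit, a serine protease of the Toll cascade. Of that list 5 had an unadjusted p under 0.05, the other 4 on the positive side: Spn28Dc with 0.98 ± 0.36, pip with 0.63 ± 0.24, wbl with 0.57 ± 0.22 and Hayan with 0.66 ± 0.28 in the authors' deposited table. Of 13 genes of the JAK-STAT response, 1 passed on the positive side, the thioester protein gene Tep2 with 1.62 ± 0.31 (adjusted p 9.36e-06 by edgeR) in the authors' deposited table. Phagocytosis and melanisation genes gave 0 calls of 14 by edgeR, with 4 at an unadjusted p under 0.05.

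spirit lay on the side opposite to modSP. It had 1, 1 and 0 reads in the positive-side libraries, from the largest to the smallest, and 11, 8 and 6 in those of the negative side. The levels of 0 to 0.0268 CPM and 0.256 to 0.353 CPM did not overlap, and the ratio, negative over positive, was 15.4 with an exact counting interval of 3.83 to 134. Its adjusted p by edgeR was 3.98e-05 in the authors' deposited table. Reads of list genes were recovered for called ones only, so the lack of overlap for spirit is no added support. The genes of the proteases that act above spz in the egg did not pass: ndl had 0.41 ± 0.22, gd 0.16 ± 0.28, snk 0.04 ± 0.25 and ea 0.10 ± 0.21 in the authors' deposited table.

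The peptide genes that the pathways switch on include calls on the negative side. By edgeR in the authors' deposited table, 9 of 25 antimicrobial and immune-induced peptide genes passed there and 0 on the positive side, against 2.19% of all genes called on the negative side. The peptide list, too, was chosen with earlier results of these data known, so that count is no independent support. The median of the 25 peptide genes in the authors' deposited table was -0.88, or -1.89 over the 21 with a read in the compared libraries. Fitted folds of genes with a side near 0 depend on the prior count. The smallest p belonged to Drs, the antifungal peptide drosomycin (adjusted p 4.15e-55 by edgeR in the authors' deposited table), for which no fold is given because its upper limit on the positive side is under 1 read in the 3 libraries together. IM1, a short immune-induced peptide, had a log2 fold change of -3.67 ± 0.60 (adjusted p 9.16e-08), and Dpt, the peptide diptericin, had -3.36 ± 0.69 (adjusted p 5.91e-05), both by edgeR in the authors' deposited table. Of the peptides mainly driven by Toll, IM2 had 2, 3 and 4 reads on the positive side against 9, 14 and 12 on the negative side, from the largest to the smallest library, a ratio of 4.78 with an exact counting interval of 2.25 to 11.3. IM23 had 0 reads on the positive side against 4, 7 and 4 on the negative side. That negative-side level is 6.15-fold the level of 3 reads over the 3 positive-side libraries, without an allowance for its own counting error.

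Of the peptides mainly driven by Imd, DptB had 2, 1 and 2 reads on the positive side against 11, 8 and 5 on the negative side, a ratio of 5.90 with an exact counting interval of 2.21 to 19.8. AttB had 5, 5 and 3 reads against 11, 10 and 11, a ratio of 3.03 with an exact counting interval of 1.55 to 6.29. None of IM2, IM23, DptB and AttB exceeded 0.512 CPM in any compared library. Among peptide genes, reads were recovered for called ones only, so that the sides of these 4 do not overlap follows from their choice. Of the peptide genes that did not pass, Dro had 0.50 ± 0.28, AttA -0.07 ± 0.36, Drsl2 1.11 ± 0.90 and CecA1 -0.71 ± 0.86 in the authors' deposited table. AttC, with -2.24 ± 0.90, and Mtk lay on the negative side with unadjusted p of 0.0128 and 0.0138 by edgeR. Mtk averaged 0.0897 CPM there, and AttD, on the positive side, 0.0748 CPM. A gene with 1 read in the whole fit is listed at 0.0719 CPM, so no fold is given for Mtk and AttD. Of the 7 Malpighian tubule markers, 3 also passed on the negative side by edgeR and 0 on the positive side, against 2.19% and 2.30% of all genes. This list, too, was chosen with earlier results of these data known, so its count is no independent support. The 3 were Uro with -4.38 ± 0.35, Oatp58Dc with -3.26 ± 0.34 and Oatp58Db with -3.06 ± 0.55 in the authors' deposited table. Over the 7 markers the median was -0.79 and the averages summed to 183 CPM, of which Oatp58Dc made up 80.2 CPM. Of the tubule markers that did not pass, NaPi-T had -0.79 ± 0.34 and Irk3 -0.58 ± 0.42. Irk1 with 0.50 ± 0.22 and Best2 with 0.19 ± 0.22 lay on the positive side in the authors' deposited table. The part of the tubules in the result for the peptides and spirit was not tested. Whether the peptide genes differ from the signalling genes was not tested either.

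**Figure D4:**
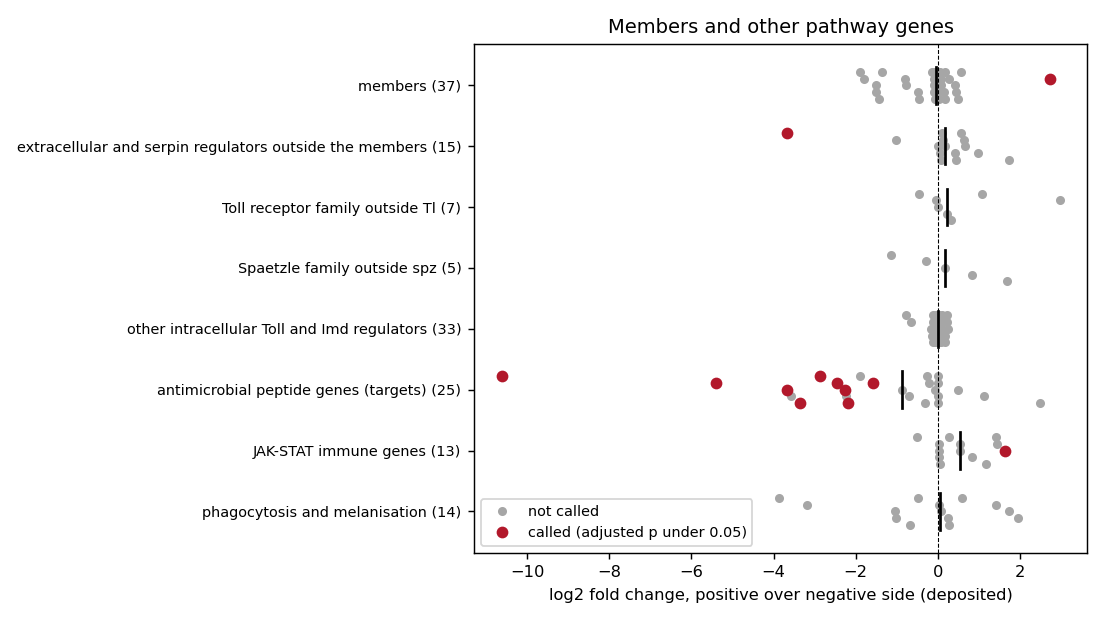
Log2 fold change, positive over negative side, as deposited by the authors, for the 37 members and 7 other lists of immune genes (number of genes in brackets); each point is a gene, red where called, and the black bar is the list's median. The peptide list holds 9 red points on the negative side, while the 33 other intracellular regulators lie between -0.77 and 0.25; the largest fitted folds belong to genes with almost no reads on 1 side.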

How the data were processed

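Pooled embryos were the source of RNA, per the labels' protocols, and the kit was a stranded one for total RNA, while the samples are described as polyA selected. FastQC, Bowtie and TopHat were used per the submitters' processing notes; the counter, the build and any filter are not given there. The authors' deposited table comes from edgeR's glmLRT and holds, per the file headers, each gene's log2 fold change, its log2 CPM averaged over libraries, a score (the likelihood ratio statistic), a p-value and an adjusted p-value. These were used as deposited, at an adjusted p under 0.05, because no count per library is given, and 0 columns belong to other samples.

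The implied SE divides the size of the log2 fold change by the root of the likelihood ratio score, and approximate 95% intervals are 1.96 SE either way. The smallest callable change multiplies the SE by the root of the lowest score called. Library sizes were solved from the averages of genes with 1 read; 74 of 78 predicted levels for 2 reads were found within 1e-09. For genes with up to 75 reads in the fit, every set of whole reads was tried in the 6 compared libraries: the score fixed the dispersion, and the fold change (within 1e-08, or 1e-05 with a side at 0) and the average (within 1e-09) had to be met by whole reads.

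The steps were tested on data simulated for this comparison, 14313 genes with the dispersion of each known, fitted by glm with MASS 7.3.60.0.1 in R 4.3.3. All 12 libraries were recovered, 45 of 50 genes were given exactly 1 read set, and all 45 were the true set. Those genes had 1 to 50 reads in the fit, so recovery for PGRP-SB1 and spirit, which had more, was not tested. The 95% intervals held the true fold change in 95.1% of genes of 1 CPM or more. The test called 58% of genes changed by 1 on the log2 scale and 99% of those changed by 2. Code ran in Python 3.11.15 with numpy 2.4.6, scipy 1.17.1 and numba 0.67.0.

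The members, and lists of other genes, were chosen with earlier results of these data known. Named in full were members past the adjusted or unadjusted threshold, the most abundant of each role, and called genes of other lists (up to 4 each); further members, and the list genes with recovered reads, are given to account for them. Names were matched to Release 6 for neighbours and exon lengths only. A planned search of promoters for motifs was not run, as no sequence was used here.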

Additional observations from a re-analysis of the deposited data

How the results depend on the processing

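Of the members, 1 was called on the positive side and 0 on the other; these counts held under an adjusted p under 0.01, a 2-fold minimum, an average of 1 CPM or more (22 members tested) and Benjamini-Yekutieli adjustment, and modSP passed under each of these, with adjusted p from 8.23e-15 to 1.11e-13. With an average of 1 CPM or more, calls over all genes fell from 342 to 209 on the positive side and from 325 to 135 on the negative side, since fewer genes are tested. With Benjamini-Yekutieli adjustment the positive side kept a count of 220. The median of the members was -0.02 with an average of 1 CPM or more. That filter left 3 of 25 peptide genes, 1 of them called, and removed spirit. No paired analysis was possible because the table holds no column per sample. For the same reason another count test, other filters on counts and leaving out each replicate were not run, so a single library could decide the modSP call unseen. Depth limits the scarce members: 14 of the 22 recognition and cascade genes averaged below 1 CPM.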

Other observations

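The recovered reads also fill the 6 libraries of the fit that were not compared. Their reads were solved from the average alone, given the reads in the compared libraries, and were not checked on the simulated data. PGRP-SB1 had 48 reads there against 20 in the compared libraries, and 24 of the 48 were in a single library. psh had 34 reads there against 16, and spirit 29 against 27. PGRP-SD, IM2 and IM23 had 0 reads there, against 40, 44 and 15 in the compared libraries, and PGRP-SA had 5 against 20. The labels do not name the groups of those 6 libraries, so no comparison was made.

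Toll-6, a receptor of the Toll family, averaged 178 CPM in the authors' deposited table, and its log2 fold change of 2.96 had an implied SE of 1.57.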
